A study of Mus musculus with 18 samples.

Results

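Transcripts of 9 surface proteins that separate blood stem cells from multipotent progenitors were followed across 3 sorted bone marrow populations and both Dnmt1 genotypes. The members, Kit, Ly6a, Slamf1, Cd48, Flt3, Cd34, Procr, Tek and Esam, were picked by name for their place in sorting schemes, with earlier results of these data known. Each had its row among the 29717 gene symbols of the count tables. Dnmt1 is the enzyme that restores DNA methylation after replication, and the study asked how a missense, hypomorphic change in it alters mouse blood progenitors. RNA of sorted lineage-negative BALB/c marrow cells was counted by CEL-Seq2, which primes at the poly(A) tail and tags each captured molecule. There were 9 mutant libraries (3 HSC, 2 MPP1, 4 MPP4), whose genotype field reads dnmt1-/- although the series text describes a missense allele, and 9 wild-type control libraries in the same numbers.

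In mouse marrow, stem and early progenitor cells are found among lineage-negative cells that carry the receptor tyrosine kinase Kit and the small lipid-anchored protein Sca-1 (Ly6a). Within them, CD150 (Slamf1) without CD48 marks stem cells, and Flt3 appears with CD48 as CD150 is lost in the lymphoid-primed fraction called MPP4. CD34 is a sialomucin that is scarce on dormant stem cells and present on progenitors. EPCR (Procr), Tie2 (Tek) and Esam are proteins of endothelium that stem cells share. In BALB/c mice the Sca-1 protein is known to be displayed on fewer marrow progenitors than in many other strains.

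The labels do not state the sort gates, nor the age or sex of the animals or how many cells or animals went into a library. In common usage the proteins of Kit, Ly6a, Slamf1, Cd48, Flt3 and Cd34 set these gates, so differences of those transcripts between populations check the labels rather than add to them, whereas Procr, Tek and Esam are outside the usual scheme. Column names carry ID numbers, which recur across populations except for those of MPP4 control 2 and MPP4 mutant 2. Nothing in the labels ties a number to an animal. A p-value here thus reflects library-to-library spread, which may be partly technical. Each population was spread differently over 3 sequencing batches (HSC over A and C, MPP1 in C only, MPP4 over A, B and C), and every batch used held both genotypes. Library totals ran from 354642 to 1943560 counts, and values are given in counts scaled to a common library total (CPM) with TMM factors, with 3 counts as the floor (1.40 to 11.2 CPM by library).

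Some libraries carried transcripts of other cell types. The summed level of 14 erythroid markers was 233392 CPM in MPP4 mutant 2, 41883 in MPP4 control 4, 31623 in MPP1 control 2 and 15581 in HSC mutant 1, against 378 to 1263 CPM in the other 14 libraries. Neutrophil markers (10 genes) reached 35946 CPM in MPP4 mutant 2, and B cell markers (11 genes) 35196 CPM in HSC control 1, 11831 CPM in MPP4 mutant 3 and 3284 CPM in MPP4 control 4. Mast cell and basophil markers (8 genes) came to 146 CPM in MPP4 mutant 1 and 202 CPM in MPP4 mutant 2. In MPP4 mutant 1 they were mostly Cma1, Cpa3 and Mcpt8 (49.1, 47.8 and 34.9 CPM). In MPP4 mutant 2 they were almost all 1 gene, Hdc (194 CPM). Genes that define the populations went with the labels: of 10 tested genes of stem cell identity, 8 fell in mutant MPP4 and 9 in control MPP4, each set against its HSC, and of 10 tested lymphoid priming genes 9 were higher in both genotypes. Among the lymphoid priming genes, Il7r and Dntt did not pass the filter on counts in HSC alone, so they could hardly be called lower in MPP4. Of all genes tested, 5.66% were lower and 7.04% higher in mutant MPP4, and 4% lower and 5.82% higher in control MPP4.

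Slamf1 and Cd48 are neighbours on chromosome 1 (GRCm38, GENCODE M21). Cd48 spans 171682009 to 171705258 and Slamf1 spans 171767127 to 171801184, both on the plus strand and 61869 bp apart, inside a cluster that also holds Cd244a, Ly9, Slamf7, Cd84 and Slamf6. Their start regions are shown because the 2 transcripts moved in opposite directions between populations, and those of Tek and Flt3 because these receptor tyrosine kinase genes did the same from different chromosomes. Each line holds the 250 bases before the RefSeq start (build GRCm38.p6), read in the direction of transcription, for Slamf1 (chr1:171766882-171767131, plus strand), Cd48 (chr1:171681742-171681991, plus strand), Tek (chr4:94739039-94739288, plus strand) and Flt3 (chr5:147400490-147400739, minus strand). Capitals mark matches on either strand to a short motif: GATAA for GATA factors, the letters AGGAAG for ETS factors, the letters TGTGGT for RUNX factors, or the letters CAGCTG for factors that bind an E-box.
Slamf1: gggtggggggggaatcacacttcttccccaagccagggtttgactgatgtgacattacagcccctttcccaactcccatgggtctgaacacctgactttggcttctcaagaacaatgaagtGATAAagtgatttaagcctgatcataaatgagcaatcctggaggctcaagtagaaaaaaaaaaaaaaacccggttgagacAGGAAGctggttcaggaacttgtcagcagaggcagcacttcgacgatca
Cd48: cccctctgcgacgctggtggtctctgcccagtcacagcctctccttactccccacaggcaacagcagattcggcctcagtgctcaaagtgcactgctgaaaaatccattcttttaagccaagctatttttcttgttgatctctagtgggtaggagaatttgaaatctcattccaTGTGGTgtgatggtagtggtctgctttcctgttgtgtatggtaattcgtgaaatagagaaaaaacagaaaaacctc
Tek: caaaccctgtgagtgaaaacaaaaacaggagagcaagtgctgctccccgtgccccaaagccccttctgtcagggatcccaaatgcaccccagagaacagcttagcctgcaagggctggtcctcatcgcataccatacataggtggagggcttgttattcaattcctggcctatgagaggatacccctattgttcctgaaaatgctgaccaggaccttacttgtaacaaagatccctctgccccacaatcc
Flt3: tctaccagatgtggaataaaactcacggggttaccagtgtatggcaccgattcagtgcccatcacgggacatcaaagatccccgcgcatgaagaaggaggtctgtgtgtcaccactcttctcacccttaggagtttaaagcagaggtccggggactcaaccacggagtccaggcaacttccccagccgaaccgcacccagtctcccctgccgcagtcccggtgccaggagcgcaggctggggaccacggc
Slamf1 held 1 GATA match and 1 ETS match, Cd48 held 1 RUNX match, and Tek and Flt3 held none of these letters in this window. Of 32851 windows of the same length, 22.6% held the GATA letters, 29.5% the ETS letters, 14.0% the RUNX letters and 13.0% the E-box letters. The Flt3 window had 13 CpG sites, against 2 in Tek, 3 in Slamf1 and 4 in Cd48. RefSeq windows were at hand for 7 of the 9 genes, and none for Ly6a and Esam.

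Between MPP4 and HSC, 8 of the 9 genes were called in both genotypes. The 3 genes Cd48, Flt3 and Cd34 were higher in MPP4, the 5 genes Slamf1, Esam, Tek, Procr and Kit were lower, and Ly6a did not pass. In mutant marrow the share called among all 10613 genes tested was 12.7% (7.04% higher and 5.66% lower, by edgeR's quasi-likelihood test at an adjusted p under 0.05), and in control marrow it was 9.82% (5.82% higher and 4% lower). The median log2 difference of the 9 genes was −0.68 in mutants, where it was −0.048 over all genes, and −0.67 in controls, where it was 0.00018 over all genes. The members and the other lists were chosen with earlier results of these data known. Kit, Slamf1, Cd48, Flt3 and Cd34 also belong to the usual gates. The counts of genes called, here and against MPP1, are thus no test of the set against the background. A lower level in a sorted population can come from fewer cells that carry the transcript or from less of it per cell, and these cannot be told apart in bulk libraries.

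**Figure D1:**
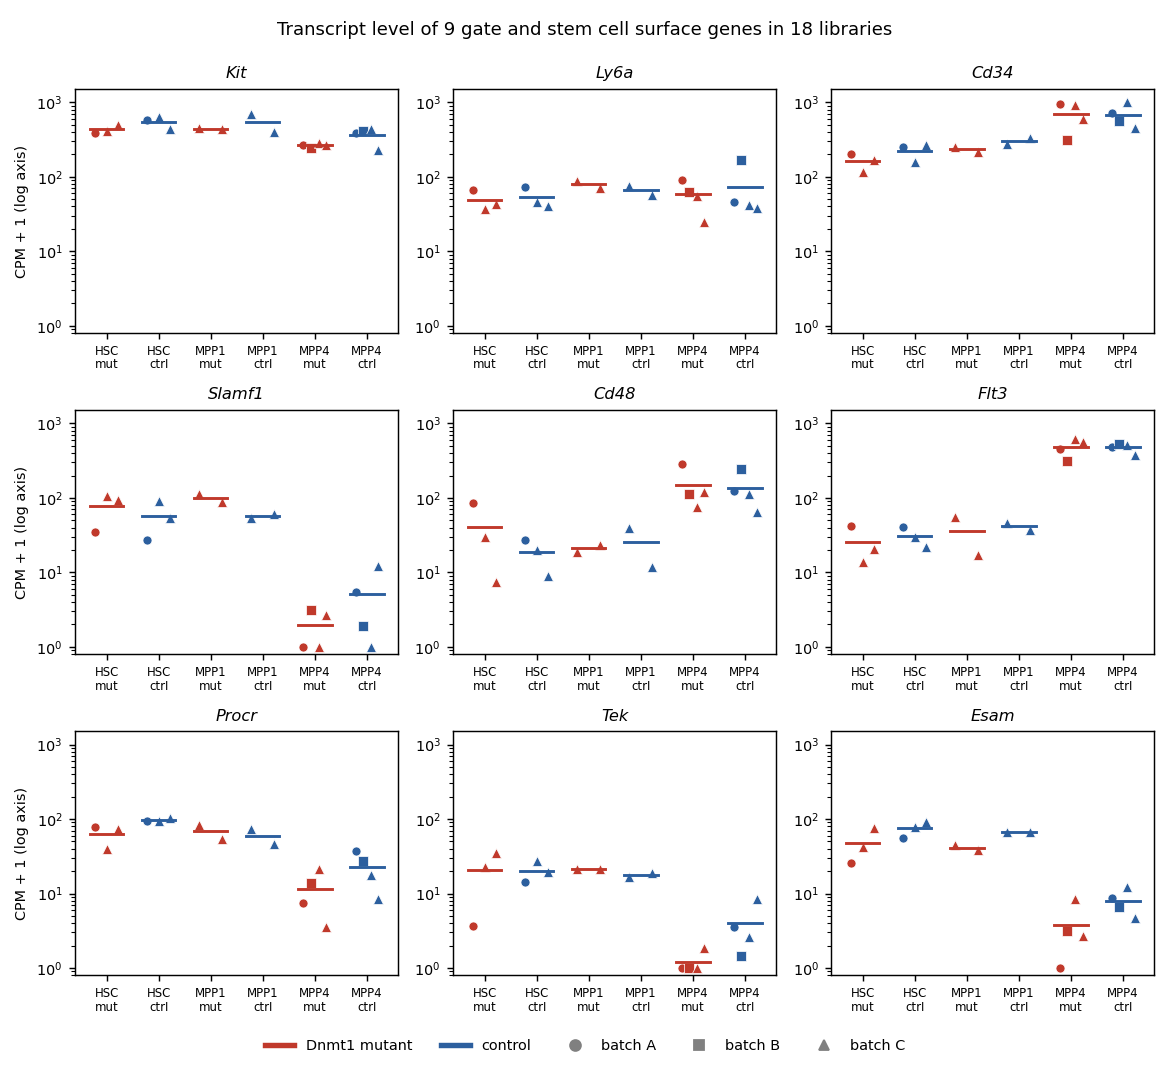
Each panel plots 1 gene, with CPM + 1 on a log axis in the 18 libraries (red, Dnmt1 mutant; blue, control; symbol, sequencing batch) and the group mean as a bar; a library with no count sits at 1. Slamf1, Procr, Tek and Esam are low in the 8 MPP4 libraries, where Cd48, Flt3 and Cd34 are high, and Kit and Ly6a span the narrowest ranges.

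Slamf1 encodes CD150, the founding receptor of the signalling lymphocyte activation family. In HSC, Slamf1 had 33.5, 105 and 93.1 CPM in mutant libraries 1 to 3, against 26.4, 88.9 and 52.4 CPM in controls. Slamf1 in MPP1 was at 113 and 86.0 CPM in mutants and 52.0 and 59.9 CPM in controls. MPP4 levels of Slamf1 were 0, 2.13, 0 and 1.69 CPM in mutants 1 to 4 and 4.43, 0.936, 0 and 11.2 CPM in controls 1 to 4. Every MPP4 library was below every HSC and MPP1 library, and the MPP4 values stand for 0, 1, 0 and 2 counts in the mutants and 7, 2, 0 and 3 counts in the controls. Because mutant MPP4 libraries held only 3 counts in all, the fitted log2 difference there (−6.33, SE 0.72, edgeR adjusted p = 5.21e-06) is no bound, and the pooled level was 70.6-fold lower in mutant MPP4 than in mutant HSC (95% counting interval 23.9 to 345). In controls the fitted difference was −3.91 (SE 0.58, edgeR adjusted p = 0.00016), on 12 counts in MPP4 against 134 in HSC, a 28.0-fold lower pooled level (15.5 to 55.5). The fitted difference is a 15.0-fold lower level and lies outside that interval. The interval covers counting error only, not the spread between libraries, and its pool includes MPP4 control 2, whose level did not inform the fit. Without the ID number of HSC control 1 the fitted difference was −5.09, without that of HSC control 2 it was −2.43, and the call held in both. In mutants the fitted value was −8.54 without the ID of HSC mutant 2, and the call held.

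Cd48 encodes a lipid-anchored ligand of CD244 and CD2 that is spread widely over committed blood cells. In HSC, Cd48 had 85.1, 29.3 and 6.53 CPM in mutant libraries 1 to 3, against 26.4, 19.0 and 7.87 CPM in controls. Cd48 in MPP1 was at 17.99 and 22.5 CPM in mutants and 37.9 and 10.9 CPM in controls. For MPP4, Cd48 was at 284, 110.7, 75.1 and 118 CPM in mutants 1 to 4 and 123, 246, 113 and 63.5 CPM in controls 1 to 4. HSC mutant 1, the library with the extra erythroid transcripts, had the highest Cd48 outside MPP4 and overlapped with MPP4 mutant 3, while all control MPP4 libraries were above all control HSC libraries. The part of those cells in its Cd48 level was not tested. Cd48 was higher in MPP4 than in HSC by 2.02 (SE 0.24, edgeR adjusted p = 1.72e-07) on the log2 scale in mutants and by 2.46 (SE 0.29, edgeR adjusted p = 2.54e-07) in controls. In both genotypes the call held without each ID number in turn (log2 difference 1.84 to 2.31 in mutants and 2.37 to 2.66 in controls). MPP4 mutant 1, with the highest Cd48, had 146 CPM of mast cell and basophil markers, whose part in its level was not tested. The gene overlaps the model Gm37010 on the same strand, and the sources used here do not say how shared reads were split.

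Other receptors of the same family were followed as well. Of 5 tested, Cd244 (Cd244a in the annotation), the receptor for CD48, was higher in MPP4 in both genotypes, with 92 counts against 4 in mutant HSC (pooled ratio 23.4, 95% counting interval 8.85 to 87.9) and 204 counts against 2 in control HSC (pooled ratio 40.7, 11.1 to 338). Cd84, a self-binding receptor, was lower in mutant MPP4 (log2 difference −0.97, SE 0.28, edgeR adjusted p = 0.0159). Slamf8 (edgeR adjusted p = 0.00817, 47 counts against 1, pooled ratio 18.7, 3.20 to 756) and Ly9 (log2 difference 1.20, SE 0.35, edgeR adjusted p = 0.0223) passed in controls. Slamf8 did not pass in mutants but lay in the same direction, with 48 counts in MPP4 against 5 in HSC (pooled ratio 9.78, 3.91 to 31.5). In HSC alone 2 of the listed receptors passed the filter on counts, against 5 in MPP4. With so few counts in HSC, Cd244 and Slamf8 could hardly be called lower in MPP4. Ly9 overlaps Cd244a on the opposite strand, and as no source used here says whether strand was counted, their reads may be mixed. In the genotype comparisons none of the tested members was called.

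Flt3, the receptor tyrosine kinase for Flt3 ligand, drives expansion of lymphoid and dendritic progenitors. In HSC, Flt3 had 41.6, 12.9 and 19.6 CPM in mutant libraries 1 to 3, against 39.5, 29.0 and 20.98 CPM in controls. Flt3 in MPP1 was at 54.0 and 16.4 CPM in mutants and 44.6 and 36.3 CPM in controls. Flt3 reached, in MPP4, 455, 313, 611 and 557 CPM in mutants 1 to 4 and 476, 535, 518 and 374 CPM in controls 1 to 4. All 8 MPP4 libraries were above all others, with a gap from 54.0 to 313 CPM between the highest library outside MPP4 and the lowest inside it. The log2 difference between MPP4 and HSC was 4.45 (SE 0.32, edgeR adjusted p = 6.35e-08) in mutants and 3.93 (SE 0.33, edgeR adjusted p = 6.05e-07) in controls, a 21.8-fold and a 15.2-fold higher level. It was 5.19 in mutants without the ID number of HSC mutant 1. MPP4 mutant 3, with the highest Flt3, held 11831 CPM of B cell markers, against 518 to 727 CPM in the other mutant MPP4 libraries, and their part in its level was not tested. An antisense model, Gm26597, overlaps the start of the gene (chromosome 5, 147330741 to 147400489, minus strand).

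Cd34 encodes a sialomucin of progenitors and endothelium. In HSC, Cd34 had 204, 114 and 165 CPM in mutant libraries 1 to 3, against 248.7, 156 and 265 CPM in controls. Cd34 in MPP1 was at 249.2 and 217 CPM in mutants and 273 and 327 CPM in controls. The MPP4 values of Cd34 were 962, 315, 908 and 592 CPM in mutants 1 to 4 and 712, 560.4, 1012 and 456 CPM in controls 1 to 4. MPP4 mutant 2, which has the largest erythroid share, had the lowest MPP4 value, and it still lay above every HSC library. The part of that share in its Cd34 level was not tested. Cd34 was higher in MPP4 than in HSC by 2.34 (SE 0.24, edgeR adjusted p = 1.32e-07) in mutants and 1.72 (SE 0.24, edgeR adjusted p = 2.21e-05) in controls (log2). Its span is overlapped by the antisense model Gm16897 (chromosome 1, 194955759 to 194976960).

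Kit, the receptor for stem cell factor, was present in every library. In HSC, Kit had 390.1, 407 and 501 CPM in mutant libraries 1 to 3, against 586, 631 and 438 CPM in controls. Kit in MPP1 was at 447 and 436 CPM in mutants and 695 and 401 CPM in controls. MPP4 libraries carried Kit at 266, 243, 285 and 266 CPM in mutants 1 to 4 and 385, 412, 440.3 and 232 CPM in controls 1 to 4. The mutant MPP4 libraries were all below the mutant HSC libraries, and the control MPP4 libraries overlapped with control HSC through MPP4 control 3. The log2 difference between MPP4 and HSC was −0.68 (SE 0.17, edgeR adjusted p = 0.00613) in mutants and −0.67 (SE 0.17, edgeR adjusted p = 0.00817) in controls, the smallest of the differences called there. In mutants the call did not hold when the ID of HSC mutant 2 was left out (adjusted p = 0.0818) or that of HSC mutant 3 (0.126), with 0.0034 to 0.126 over the alternatives. In controls it was lost on leaving out HSC control 1 with its ID (adjusted p = 0.0664) or HSC control 3 (0.0621), with 0.0045 to 0.128 over the alternatives.

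Ly6a, which encodes Sca-1, had the narrowest range of group means of the 9 genes, 0.71 log2 units. In HSC, Ly6a had 66.1, 36.2 and 42.5 CPM in mutant libraries 1 to 3, against 72.5, 45.3 and 39.3 CPM in controls. Ly6a in MPP1 was at 87.4 and 69.6 CPM in mutants and 75.0 and 56.3 CPM in controls. Ly6a in MPP4 came to 90.5, 61.7, 55.1 and 23.7 CPM in mutants 1 to 4 and 45.6, 168, 41.3 and 37.4 CPM in controls 1 to 4. A single library, MPP4 control 2, was far above the rest of its group, and every group overlapped with its neighbours in the order of means. The ID number of MPP4 control 2 occurs in no other population, so its level did not inform the fitted differences between populations. Between MPP4 and HSC the log2 difference was 0.081 (SE 0.26, edgeR adjusted p = 0.908) in mutants and −0.38 (SE 0.27, edgeR adjusted p = 0.503) in controls, with 95% intervals of −0.44 to 0.60 and −0.92 to 0.17. Ly6a belongs to a family of close copies, and reads shared with Ly6c1, Ly6c2 and other members may be assigned between them in ways the files do not show.

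Procr encodes the endothelial protein C receptor, which is used to enrich mouse stem cells. In HSC, Procr had 76.0, 38.8 and 71.9 CPM in mutant libraries 1 to 3, against 93.9, 92.5 and 102 CPM in controls. Procr in MPP1 was at 82.2 and 53.2 CPM in mutants and 72.1 and 45.4 CPM in controls. Procr in MPP4 was at 6.46, 12.8, 20.02 and 2.54 CPM in mutants 1 to 4 and 36.1, 26.2, 16.7 and 7.47 CPM in controls 1 to 4. All MPP4 libraries were below all HSC and MPP1 libraries, with the nearest pair of values at 36.1 CPM in MPP4 control 1 and 38.8 CPM in HSC mutant 2. The log2 difference between MPP4 and HSC was −3.02 (SE 0.40, edgeR adjusted p = 1.34e-06) in mutants and −2.13 (SE 0.32, edgeR adjusted p = 1.49e-05) in controls. These are an 8.10-fold and a 4.39-fold lower level. Without the ID number of HSC mutant 3 the mutant difference was −3.68, and without that of HSC control 1 the control difference was −2.80.

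Tek encodes Tie2, the angiopoietin receptor that is tied to stem cell quiescence. In HSC, Tek had 2.72, 21.5 and 34.3 CPM in mutant libraries 1 to 3, against 13.2, 26.3 and 18.4 CPM in controls. Tek in MPP1 was at 20.6 and 20.5 CPM in mutants and 15.6 and 18.1 CPM in controls. For Tek, MPP4 libraries had 0, 0, 0 and 0.847 CPM in mutants 1 to 4 and 2.53, 0.468, 1.59 and 7.47 CPM in controls 1 to 4. HSC mutant 1 was the only HSC library inside the MPP4 range, with 3 counts. Mutant MPP4 libraries held 1 count in all and control MPP4 libraries 4, 1, 2 and 2. The pooled level was 48.1-fold lower in mutant MPP4 than in mutant HSC (95% counting interval 8.23 to 1937), where the fitted difference of −5.04 (SE 0.91, edgeR adjusted p = 0.000127) is no bound and was −6.53 without the ID number of HSC mutant 2. In controls the log2 difference was −2.73 (SE 0.63, edgeR adjusted p = 0.00301), a call that did not hold when the ID of HSC control 2 was left out (−1.93, adjusted p = 0.293, with 0.000975 to 0.293 over the alternatives).

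Esam, an adhesion molecule of endothelial junctions, is also found on mouse stem cells. In HSC, Esam had 24.4, 41.3 and 75.1 CPM in mutant libraries 1 to 3, against 54.4, 78.0 and 89.2 CPM in controls. Esam in MPP1 was at 43.7 and 36.9 CPM in mutants and 65.4 and 65.3 CPM in controls. Esam in MPP4 stood at 0, 2.13, 7.51 and 1.69 CPM in mutants 1 to 4 and 7.59, 5.61, 11.1 and 3.74 CPM in controls 1 to 4. No MPP4 library reached the level of any HSC or MPP1 library. The log2 difference between MPP4 and HSC was −4.24 (SE 0.49, edgeR adjusted p = 6.33e-08) in mutants, where MPP4 libraries held 6 counts, and −3.01 (SE 0.35, edgeR adjusted p = 1.65e-07) in controls, where they held 39. The mutant difference was −4.96 without the ID number of HSC mutant 3. Since Procr, Tek and Esam are endothelial genes as well, 13 endothelial and stromal markers were summed: they came to 5.005 to 38.3 CPM in mutant MPP4 and 43.5 to 59.4 CPM in mutant HSC, and to 3.74 to 116 CPM in control MPP4 and 30.8 to 68.2 CPM in control HSC. Most of the sum in HSC was 1 stromal collagen gene, Col1a2, with 103 counts in mutant HSC, where the other 12 had 42, and 75 in control HSC, where they had 19. The other 12 markers came to 1.69 to 21.3 CPM in mutant MPP4 and 6.03 to 23.5 CPM in mutant HSC, and to 3.74 to 67.2 CPM in control MPP4 and 2.62 to 23.1 CPM in control HSC. Col1a1, the other collagen gene summed, had no count in HSC of either genotype. The defining endothelial marker Cdh5 had no count in mutant MPP4, mutant MPP1 or control HSC. It had 1 count each in HSC mutant 1, HSC mutant 2 and MPP4 control 3, and 2 counts in MPP1 control 1. Other endothelial markers were present in single HSC libraries. Kdr had 8 counts (13.1 CPM) in HSC mutant 3, Plvap 12 (10.9 CPM) in HSC mutant 1 and Ptprb 5 (8.24 CPM) in HSC control 1. Of the 13 markers, 7 had a count in mutant MPP4 and 10 in mutant HSC, and 13 in control MPP4 and 8 in control HSC. The part of these markers in the levels of Procr, Tek and Esam was not tested.

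MPP4 was also compared with MPP1, which has 2 libraries per genotype. In mutants all 9 genes were called, 3 higher and 6 lower in MPP4, where 6.2% of all genes tested were called (3.03% higher and 3.17% lower). In controls 6 were called, 3 in each direction, at a background of 3.58% (1.86% higher and 1.72% lower). The log2 differences in mutants and in controls were 3.92 and 3.42 for Flt3, 2.09 and 1.73 for Cd48, 1.57 and 1.26 for Cd34, −3.31 and −1.63 for Procr and −3.78 and −2.69 for Esam. Slamf1 had 3 counts in mutant MPP4 against 86 in mutant MPP1, a 92.2-fold lower pooled level (95% counting interval 30.5 to 456), and differed by −3.58 in controls. Kit and Ly6a differed by −0.71 and −1.05 in mutants, and Tek had 1 count in mutant MPP4 against 18 in mutant MPP1 (57.9-fold lower pooled level, 9.14 to 2413). Kit, Tek and Ly6a did not pass in controls (edgeR adjusted p = 0.0512, 0.0768 and 0.103), with unadjusted p-values of 0.00185, 0.00329 and 0.00518. Kit did pass there without the ID number of HSC mutant 1 (adjusted p = 0.038) or MPP4 control 2 (0.0498).

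Some of these calls were lost without single ID numbers, when fewer libraries were fitted. The count in mutants was 4 without the ID number of HSC mutant 2, when Cd48, Kit, Ly6a, Slamf1 and Tek were lost (edgeR adjusted p = 0.217, 0.451, 0.574, 0.0713 and 0.172) and the log2 differences were 1.70 for Cd48, −0.62 for Kit and −0.68 for Ly6a. Without that of HSC mutant 3, Cd34, Kit and Ly6a were lost (0.173, 0.294 and 0.158; log2 differences 1.37, −0.74 and −1.26), and without that of HSC control 2, Ly6a was lost (0.061). In controls only 2 genes were called once the ID of HSC control 2 was left out, when Cd34, Cd48, Procr and Slamf1 were lost (edgeR adjusted p = 0.524, 0.0939, 0.7095 and 0.057; log2 differences 0.69, 2.42, −0.999 and −2.57), and Slamf1 was also lost without that of HSC mutant 2 (0.0583). Flt3 and Esam were called under every alternative run, with adjusted p-values up to 0.0416 for Flt3 and 0.0413 for Esam. Among calls that held, the mutant differences were 3.23 for Flt3 and −3.16 for Esam without the ID of HSC mutant 2, and 4.74 for Flt3, −4.78 for Esam and −4.20 for Procr without that of HSC mutant 3. In controls Slamf1 differed by −4.66 without the ID of HSC control 1.

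**Figure D2:**
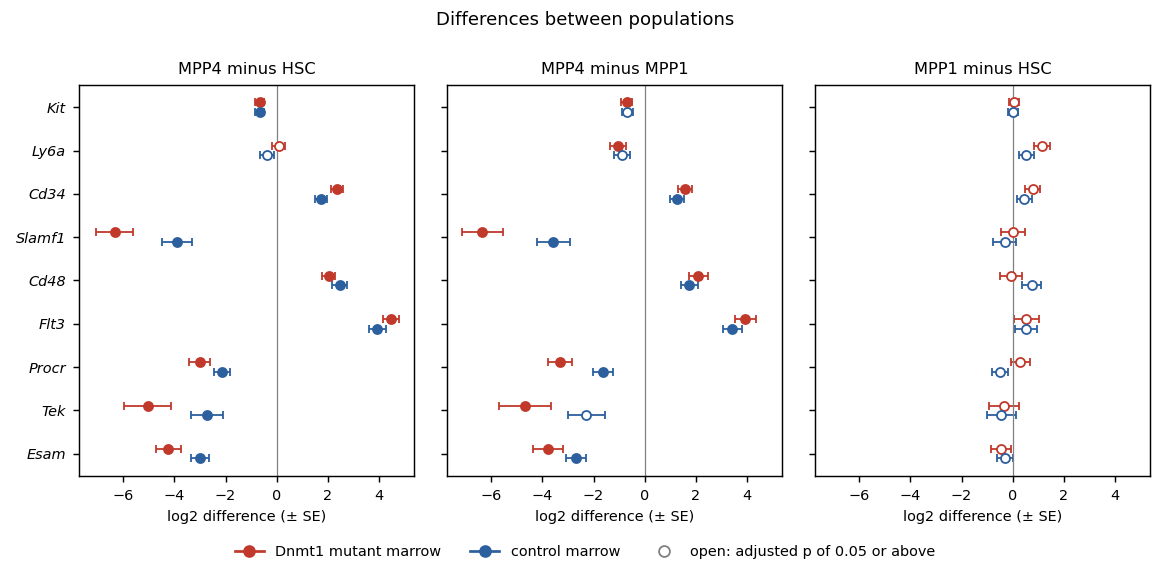
Log2 differences between populations with their SE for the 9 genes, in Dnmt1 mutant marrow (red, upper point) and control marrow (blue, lower point); open points did not pass the adjusted threshold. MPP4 differs from HSC and from MPP1 in the same direction in both genotypes for the genes called in both, and the differences between MPP1 and HSC all lie between −0.51 and 1.13.

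MPP1 and HSC, which common gates split by CD34, were compared by the same test. None of the 9 genes was called by edgeR or by DESeq2 in mutants (background 0.0471%, 2 at an unadjusted p under 0.05) or in controls (background 0.236%, 0 at an unadjusted p under 0.05). The backgrounds are shares at an adjusted p. No share of all genes at an unadjusted p was taken, here or below, so the counts at an unadjusted p have no background. The log2 difference of Cd34, MPP1 minus HSC, was 0.77 (SE 0.28, 95% interval 0.19 to 1.35) in mutants and 0.45 (SE 0.28, −0.12 to 1.02) in controls, with edgeR adjusted p = 0.509 and 0.993. In CPM, both MPP1 libraries of each genotype were above all HSC libraries of that genotype, 217 and 249.2 against 114 to 204 in mutants and 273 and 327 against 156 to 265 in controls. In mutants Ly6a was also without overlap, at 69.6 and 87.4 CPM in MPP1 against 36.2 to 66.1 CPM in HSC, and in controls so was Procr, lower at 45.4 and 72.1 CPM in MPP1 against 92.5 to 102 CPM in HSC. That makes 2 of 9 genes in mutants, where 25.8% of all genes did not overlap, and 2 of 9 in controls, where 18.4% did not. Ly6a had the smallest p, at 1.13 (SE 0.31, edgeR adjusted p = 0.254) log2 units in mutants and 0.52 (SE 0.29, edgeR adjusted p = 0.973) in controls. The interval of Slamf1 was −0.98 to 1.01 in mutants and −1.24 to 0.59 in controls. In simulated libraries this comparison in mutants recovered 0% of changes of 1 log2 unit and 30.5% of changes of 2 log2 units.

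The Dnmt1 genotype moved none of the 9 transcripts past the threshold in any population. In HSC, 0 of 9 were called by edgeR and 0 by DESeq2, where 0.241% of the 9147 genes tested were called. An unadjusted p under 0.05 was found for 3 of the 9, a count with no share over all genes beside it. Procr was alone in having mutant and control libraries that did not overlap, which held for 9.39% of all genes. The median log2 difference was −0.38 over the 9 genes and 0.013 over all genes, with 7 of 9 below 0. Procr stood at 62.2 ± 20.4 CPM in mutants and 96.2 ± 5.28 CPM in controls (SD, n = 3 each), and their difference was −0.68 (SE 0.28, edgeR adjusted p = 0.415) in log2 units. Esam was at 47.0 ± 25.8 CPM in mutants and 73.8 ± 17.8 CPM in controls, a difference of −0.75 (SE 0.30, edgeR adjusted p = 0.402). Cd48 differed by 0.91 (SE 0.43, edgeR adjusted p = 0.495) and reached 1.61 in batch A, which has 1 library per genotype, and 0.18 in batch C. The other 6 lay between −0.50 for Cd34 and 0.39 for Slamf1.

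Taken by batch, the log2 CPM of Procr in mutant minus control HSC was −0.30 for batch A and −0.85 for batch C. The values of Esam were −1.08 for batch A and −0.56 for batch C. Tek turned with the batch (A, −1.63; C, 0.28), and HSC mutant 1 held 3 counts of it. The same library had the lowest Esam, the highest Cd48 and the high erythroid sum, whose part in these values was not tested. Without HSC mutant 1, Cd48 differed by 0.35 and Tek by 0.19.

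In MPP1, none of the 9 genes was called by edgeR or DESeq2 (background 0.225% of 8004 genes). An unadjusted p under 0.05 was found for 1, again without a share over all genes. The median log2 difference was −0.24 over the 9 genes and −0.0037 over all genes. Slamf1 was at 99.5 ± 19.1 CPM in mutants and 55.9 ± 5.57 CPM in controls (SD, n = 2 each), which differed by 0.88 (SE 0.30, edgeR adjusted p = 0.729) in log2 units, with an unadjusted p = 0.00793. The groups of Slamf1 and Tek (mutants higher) and of Cd34 and Esam (mutants lower) did not overlap, 4 of 9, where 33.9% of all genes did not with 2 libraries a side. Esam was at 40.3 ± 4.83 CPM in mutants and 65.4 ± 0.0382 CPM in controls, a difference of −0.67 (SE 0.35, edgeR adjusted p = 0.999). The differences of Kit, Cd48, Flt3 and Procr changed sign when single libraries were left out.

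In MPP4, 6 of the 9 genes could be tested and none was called by edgeR or DESeq2 (background 0.0852% of 9392 genes). Of these, 2 had an unadjusted p under 0.05, a level for which no share over all genes was taken. No gene of the 9 had groups that did not overlap, which held for 2.97% of all genes. Kit was at 265 ± 17.4 CPM in mutants and 367 ± 93.2 CPM in controls (SD, n = 4 each), a difference of −0.47 (SE 0.22, edgeR adjusted p = 0.685). The lowest control was MPP4 control 4, with 41883 CPM of erythroid markers, and it lay below all mutants, while the other 3 controls lay above all of them. The part of those markers in its Kit level was not tested. Procr was at 10.4 ± 7.65 CPM in mutants and 21.6 ± 12.3 CPM in controls, a difference of −1.26 (SE 0.56, edgeR adjusted p = 0.685). It was −2.13 in batch A, −0.92 in batch B and −0.39 in batch C. Flt3, the gene by which MPP4 is usually gated, differed by −0.0078 (95% interval −0.50 to 0.48), and Cd34 by −0.063 (−0.65 to 0.53).

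Slamf1, Tek and Esam were too low in MPP4 for the filter on counts. Summed over libraries, Slamf1 had 3 counts in mutants and 12 in controls, a pooled ratio of 0.464 (95% counting interval 0.0841 to 1.72). Tek had 1 count in mutants and 9 in controls, a pooled ratio of 0.206 (0.00471 to 1.49). Esam had 0, 1, 3 and 2 counts in mutants 1 to 4 and 39 in controls, a pooled ratio of 0.286 (0.0989 to 0.6796). These intervals cover counting error only and not the spread between libraries. The mutant and control groups overlapped for all 3 genes in CPM.

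**Figure D3:**
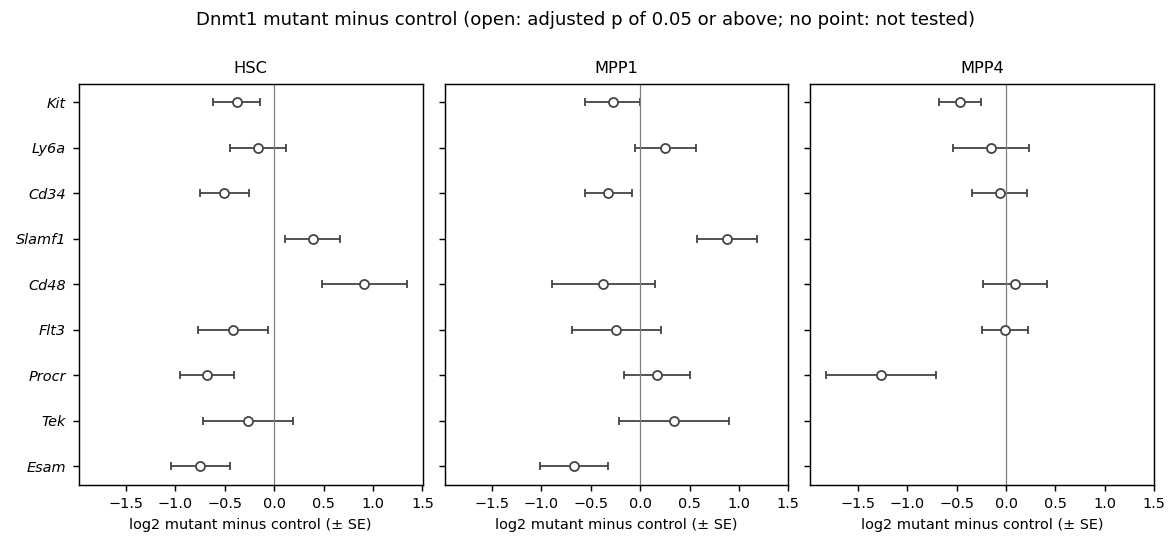
Log2 difference, Dnmt1 mutant minus control, with its SE for each of the 9 genes in HSC, MPP1 and MPP4; every point is open because none passed, and 3 genes had too few counts in MPP4. Procr and Esam lie at −0.68 and −0.75 in HSC, Slamf1 at 0.88 in MPP1, and Kit and Procr at −0.47 and −1.26 in MPP4.

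Whether the genotype effect differed between populations was tested for each pair, and no gene was called by edgeR or DESeq2. Between MPP4 and HSC 0 of 9 passed (background 0.0283%, 0 at an unadjusted p under 0.05). Between MPP1 and HSC 0 of 9 passed (background 0%, 0 at an unadjusted p under 0.05). Between MPP4 and MPP1 0 of 9 passed (background 0%, 1 at an unadjusted p under 0.05), the exception being Procr with a difference of effects of −1.68 (SE 0.64, edgeR adjusted p = 0.981). The intervals were wide for the scarce transcripts: for Slamf1 between MPP4 and HSC it was −5.18 to 0.33, against −0.48 to 0.48 for Kit. In simulated libraries the test between MPP4 and HSC recovered 1.04% of changes of 1 log2 unit and 14.3% of changes of 2. Differences of effects of that size would thus mostly go uncalled.

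Pairs of these genes gave each library a position of its own. The log2 ratio of Cd48 to Slamf1 counts (0.5 added to each) was 5.13 to 8.78 in mutant and 2.32 to 8.15 in control MPP4 libraries. It was −2.57 and −1.89 in mutant and −2.37 and −0.45 in control MPP1 libraries, and −3.68 to 1.33 in mutant and −2.55 to 0 in control HSC libraries. The highest HSC ratios were those of the batch A libraries, 1.33 in HSC mutant 1 and 0 in HSC control 1, where the 4 HSC libraries of batch C lay at or below −1.83. The ratio of Flt3 to Esam was 6.13 to 9.46 in mutant MPP4 and 5.49 to 6.52 in control MPP4, and at most 0.76 elsewhere.

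**Figure D4:**
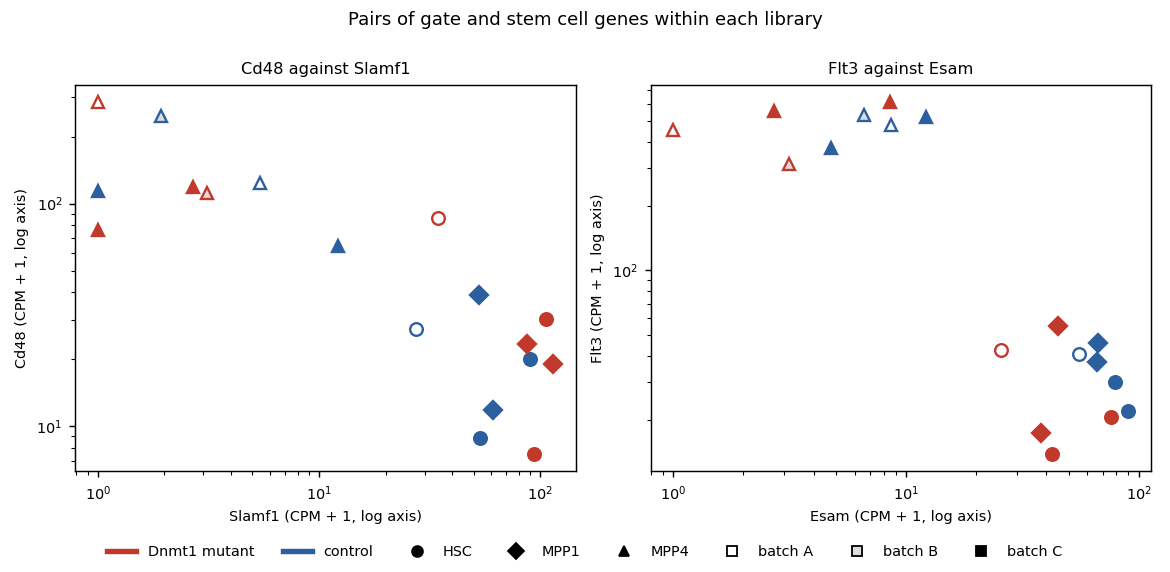
Cd48 against Slamf1 (left) and Flt3 against Esam (right), as CPM + 1 on log axes, for each library (red, Dnmt1 mutant; blue, control; circle, HSC; diamond, MPP1; triangle, MPP4; open, batch A; grey, batch B; filled, batch C). MPP4 libraries form a group apart in both plots, MPP1 and HSC libraries lie together, and the HSC libraries of batch A lie nearest to MPP4 in the left plot.

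HSC libraries of batch A differed from those of batch C in more than this pair. Ly6a was 66.1 and 72.5 CPM in batch A and 36.2 to 45.3 CPM in batch C, and Flt3 was 39.5 and 41.6 CPM against 12.9 to 29.0 CPM. Slamf1 was 26.4 and 33.5 CPM in batch A and 52.4 to 105 CPM in batch C, and Tek 2.72 and 13.2 CPM against 18.4 to 34.3 CPM. These 4 of 9 genes did not overlap between the batches, where 31.4% of 9147 genes did not. Each batch held both genotypes, and batch was a term of the genotype test. The HSC libraries of batch A were HSC control 1, with 35196 CPM of B cell markers, and HSC mutant 1, with 15581 CPM of erythroid markers. Batch and the transcripts of other cell types cannot be told apart in HSC, and why these libraries differ was not tested.

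Across the 6 group means of log2 CPM, likeness between genes was measured as the root mean square difference of centred patterns. Slamf1, Tek and Esam had 3, 1 and 6 counts in mutant MPP4, so their means there rest largely on the prior count of 2 added on the log scale, and their nearest genes depend on it. The patterns of Flt3 and Slamf1 were farthest apart among the 9 genes, at 3.80 log2 units. Outside the 9 genes, 10604 others were searched for each member that spanned 2 log2 units or more. The nearest patterns were those of Grb10, Bgn and Tgm2 for Slamf1 (0.38 to 0.43), Il10ra, Kmo and Rag2 for Cd48 (0.17 to 0.19) and Cd33, Amica1 and Ighv1-78 for Flt3 (0.20 to 0.24). For Cd34 they were Bpifc, Nav1 and Rbms1 (0.074 to 0.11), for Procr Obsl1, Gimap8 and Evc2 (0.12 to 0.14), for Tek Dach1, Csgalnact1 and Gm973 (0.13 to 0.20), and for Esam Ptrf, Plxdc2 and Trpc6 (0.23 to 0.25). Kit and Ly6a spanned 1.04 and 0.71 log2 units and were not searched.

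Other surface genes of stem cells were mostly lower in MPP4 too. Of 14 tested between MPP4 and HSC, 8 were lower and 1 higher in each genotype, where 5.66% of all genes were lower and 7.04% higher in mutants and 4% lower and 5.82% higher in controls (median log2 difference −1.14 in mutants and −1.07 in controls). Tie1, the sister receptor of Tek, was lower, at log2 differences of −2.30 in mutants and −1.49 in controls, the integrin Itga2b had 7 counts in mutant MPP4 against 244 in mutant HSC, and Itga6 differed by −1.38 in controls. Cd93, a receptor of early progenitors, was the one that was higher (1.66 in mutants and 1.297 in controls). Of 13 tested surface genes of later progenitors, 5 were higher in mutant MPP4 and 6 in control MPP4, against 7.04% and 5.82% of all genes, with none lower. In HSC alone 6 of the listed genes passed the filter on counts, against 12 in MPP4. Genes that passed only through MPP4 could hardly be called lower there, so the filter itself favoured higher calls. Il7r, the interleukin receptor of lymphoid growth, had 62 counts in mutant MPP4 against 1 in mutant HSC (pooled ratio 63.2, 95% counting interval 10.9 to 2536), and 254 in control MPP4 against 0 in control HSC, a pooled ratio whose lower 95% counting limit is 27.3. The chemokine receptor Ccr9 had 53 counts against 5 in mutants and 300 against 2 in controls (pooled ratio 59.8, 16.4 to 496).

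Of 16 tested ligands and signalling partners of these receptors, 5 were lower and 1 higher in mutant MPP4, and 4 were lower in control MPP4, where 5.66% of all genes were lower and 7.04% higher in mutants and 4% were lower in controls. Angpt1, the ligand of Tie2, was at 177 ± 69.4 CPM in mutant MPP4 and 426 ± 206 CPM in mutant HSC, and at 219 ± 61.7 CPM in control MPP4 and 556 ± 291 CPM in control HSC (log2 difference −1.24, SE 0.22, edgeR adjusted p = 0.000333 in controls). Socs2, a brake on cytokine receptors, was lower, at −2.26 in both genotypes, as was Pik3cd, a lipid kinase subunit, at −1.11 in mutants and −0.96 in controls. Sh2b3, an adaptor that restrains Kit signalling, was higher in mutant MPP4 by 1.32 (SE 0.30, edgeR adjusted p = 0.00202). None of these lists had a member called in a genotype comparison. Of the Ly6 genes beside Ly6a, only Ly6g was called between groups. Against HSC it was lower in mutant MPP4 (log2 difference −4.92, edgeR adjusted p = 0.013). It was higher in control MPP4 (6.05, edgeR adjusted p = 0.00242) and control MPP1 (6.65, edgeR adjusted p = 0.00567). All its counts in MPP4 mutants (256) came from MPP4 mutant 2, which had the most neutrophil transcripts. The ID number of that library occurs in no other population, so these counts did not inform the fitted differences. Ly6g was also among the 3 genes called in the difference of genotype effects between MPP4 and HSC (−10.97, edgeR adjusted p = 0.0266). It had 13 counts in 1 control MPP4 library, 14 counts in 1 mutant HSC library and none in control HSC, so its fitted values are no bound.

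In the authors' deposited table for each population no member had an adjusted p under 0.05. The authors' deposited table gives Procr a log2 change of −0.43 in HSC and −0.71 in MPP4, Esam −0.45 in HSC, Cd48 0.66 in HSC and Slamf1 0.50 in MPP1, smaller than the values above but of the same sign. In the authors' deposited table for MPP4, Flt3 and Cd34 have values near 0 (0.027 and 0.011) with a sign opposite to that found here.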

How the data were processed

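Poly(A) RNA of lysed sorted cells was counted by CEL-Seq2 without a separate RNA extraction, per the labels' protocols. The authors deposited estimated counts per gene and library, unscaled whole numbers, for 18 libraries, with the genome build mm10 and the tools R 3.4.0 and DESeq2, per the submitters' processing notes. The aligner, counter, annotation and use of strand were not given in the sources used here. All 1557 of the high values checked lay on the grid that a collision correction for 4096 molecular tags gives (62.0% of whole numbers do), so high counts were raised. The highest value of a member, 1274, then stands for 1095 tags. The authors' DESeq2 tables, per the file headers, hold a mean normalised signal, a log2 fold change with its error, a test score and p-values.

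Counts were tested with edgeR 4.0.16 and limma 3.58.1 in R 4.3.3, with TMM scaling, filterByExpr with a minimum count of 10, the quasi-likelihood F test and Benjamini-Hochberg adjustment over all genes tested at a threshold of 0.05. Each genotype comparison was fitted within its population with batch as a covariate, except MPP1, which has 1 batch. Population comparisons and differences of effects used 1 model of the 18 libraries, blocked on ID number. MPP4 control 2 and MPP4 mutant 2 share their ID numbers with no other library, so their levels did not inform these fitted differences. Both libraries do enter the CPM values and the pooled ratios. Standard errors come from the log2 fold change and F, and intervals are 95% with the t quantile. Log2 CPM used a prior count of 2. Counts of few reads are given as pooled ratios with exact binomial intervals, which cover counting error only.

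The members and lists were chosen with earlier results of these data known. Besides the members, up to 3 called genes per list and comparison are named, smallest adjusted p first, with the 3 nearest genes of each member that spans 2 log2 units or more. Same-numbered HSC libraries deviated together (correlations 0.49, 0.20 and 0.22), which comes from the data and the shared numbers, not from a stated pairing. HSC library 1 of each genotype was in batch A and the other HSC libraries in batch C. The part of batch in these correlations was not tested. No pair of replicate libraries agreed within counting noise (chi-square over degrees of freedom 3.45 to 83.4), as 1 library deposited a second time would, which does not show that they came from separate animals. Library totals were 354642 to 1943560 counts (median 745850). DESeq2 1.42.0, its size factors, other filters, batch C alone, other designs and leaving out libraries or ID numbers were tried. The scripts were tested on simulated data. Positions are from GENCODE M21 on GRCm38, and start regions from RefSeq on GRCm38.p6.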

Additional observations from a re-analysis of the deposited data

Results flagged for a closer look

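2 of the 18 groups of 4 libraries examined (the 9 genes in mutant and control MPP4) held a library far from the rest, where chance flags about 1 in 20. Tek in MPP4 mutant 4 was at 0.847 CPM, which is 1 count, and the other mutants were at 0. When all other values are equal, any differing value is flagged, so the Tek flag cannot be set against that rate. Ly6a in MPP4 control 2 was at 168 CPM, and the other controls were at 37.4 to 45.6 CPM.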

How the results depend on the processing

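No difference called between populations turned its direction under any alternative run, and no member was called in a genotype comparison or a difference of genotype effects under any. Without 1 ID number the count of called genes was 7 to 8 in mutants and 7 to 8 in controls between MPP4 and HSC, and 4 to 9 in mutants and 2 to 7 in controls between MPP4 and MPP1. Calls for Kit, Ly6a, Cd48, Procr and Slamf1 were also lost under other settings: the adjusted p with the sequencing batch replacing the ID block was 0.0516 in mutants and 0.128 in controls for Kit between MPP4 and HSC, and between MPP4 and MPP1 it was 0.102, 0.103 and 0.137 in mutants for Kit, Ly6a and Cd48, and 0.2696 and 0.0596 in controls for Cd48 and Procr. Kit between MPP4 and HSC in controls was at 0.0562 with batch C alone, and with no filter on low counts Kit and Ly6a between MPP4 and MPP1 in mutants were at 0.128 and 0.0686. DESeq2 gave 0.195 for Ly6a in mutants and 0.0749 for Slamf1 in controls.

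With the replicate number as a block, 0 members were called in HSC, 0 in MPP1 and 0 in MPP4: Procr in HSC differed by −0.72 (edgeR adjusted p = 0.248), Esam by −0.79 (adjusted p = 0.231) and Slamf1 in MPP1 by 0.89 (adjusted p = 0.273). The block changed no other call. In MPP4 same-numbered libraries did not deviate together in every pair (correlations 0.33, −0.022, 0.34 and −0.017), and MPP1 has 2 pairs.

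Differences that were not called took the opposite sign in 27 cases apart from those that leave out libraries, and the cause was not tested. With no batch term they were 0.022 for Cd34 (genotype in MPP4) and 0.033 for Flt3 (genotype in MPP4). With batch C alone they were 0.14 for Cd48 (mutant MPP1 minus HSC), 0.33 for Flt3 (genotype in MPP4), −0.061 for Ly6a (effect in MPP4 minus that in HSC), −0.19 for Ly6a (mutant MPP4 minus HSC), 0.069 for Procr (effect in MPP4 minus that in HSC) and 0.19 for Tek (genotype in HSC). With DESeq2 they were 0.046 for Cd48 (mutant MPP1 minus HSC), 0.0025 for Flt3 (genotype in MPP4) and 0.016 for Kit (effect in MPP4 minus that in HSC). With the sequencing batch replacing the ID block they were 0.067 for Esam (effect in MPP1 minus that in HSC), −0.018 for Kit (control MPP1 minus HSC), −0.015 for Ly6a (effect in MPP4 minus that in HSC) and −0.11 for Ly6a (mutant MPP4 minus HSC). With no filter on low counts they were −0.036 for Flt3 (effect in MPP1 minus that in HSC), −0.032 for Kit (effect in MPP1 minus that in HSC), 0.0097 for Kit (effect in MPP4 minus that in HSC), 0.042 for Kit (effect in MPP4 minus that in MPP1), −0.0063 for Kit (mutant MPP1 minus HSC) and −0.021 for Slamf1 (mutant MPP1 minus HSC). With DESeq2's size factors they were 0.0065 for Flt3 (genotype in MPP4), 0.023 for Kit (effect in MPP4 minus that in HSC) and −0.0056 for Kit (control MPP1 minus HSC). With the spread shared over all 18 libraries they were 0.012 for Flt3 (genotype in MPP4). With a stricter filter they were 0.0017 for Kit (effect in MPP4 minus that in HSC) and −0.0045 for Kit (control MPP1 minus HSC). Leaving out 1 library or ID number at a time turned other such differences, which ranged for effect in MPP4 minus that in MPP1 −0.050 to 0.89 for Cd34, −0.32 to 0.59 for Cd48, −0.18 to 1.35 for Flt3, −0.060 to 0.074 for Kit and −0.35 to 0.22 for Ly6a. They ranged for genotype in MPP4 −0.24 to 0.15 for Cd34, −0.33 to 0.48 for Cd48, −0.13 to 0.20 for Flt3 and −0.64 to 0.31 for Ly6a. They ranged for genotype in MPP1 −0.83 to 0.90 for Cd48, −1.29 to 0.45 for Flt3, −0.60 to 0.15 for Kit and −0.16 to 0.57 for Procr. They ranged for control MPP1 minus HSC −0.038 to 0.87 for Cd48, −0.071 to 0.11 for Kit and −0.56 to 0.14 for Slamf1. They ranged for mutant MPP1 minus HSC −0.44 to 0.37 for Cd48, −0.46 to 1.09 for Flt3, −0.072 to 0.14 for Kit and −0.28 to 0.33 for Slamf1. They ranged for effect in MPP1 minus that in HSC −0.50 to 0.13 for Esam, −0.99 to 0.59 for Flt3, −0.087 to 0.12 for Kit, −0.12 to 0.64 for Slamf1 and −0.23 to 0.39 for Tek. They ranged for effect in MPP4 minus that in HSC −0.089 to 0.10 for Kit. They ranged for mutant MPP4 minus HSC −0.19 to 0.41 for Ly6a. They ranged for genotype in HSC −0.64 to 0.19 for Tek.

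Depth limits the scarce transcripts: with 1.40 to 11.2 CPM as the floor of 3 counts, Slamf1, Tek and Esam did not pass the filter on counts in the genotype fit of MPP4. In simulated libraries, genotype changes of 2 log2 units were recovered at rates of 66.7% (HSC), 38.6% (MPP1) and 74.2% (MPP4). Genotype changes of 1 log2 unit were recovered in 8.33%, 0% and 14.8%.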
